A study of Mus musculus with 5 samples.

Results

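Gene expression was compared directly between 2 cultures of 32D cells, one carrying the FLT3 construct ITD613 and the other the construct ITD78, with 1 array each. Each gene was represented by whichever of its probe sets averaged highest on the pair, and the log2 value on ITD78 was subtracted from that on ITD613. Of 18193 genes, 7490 had their higher value above 4. Of these, 228 (3.04%) differed by at least 1 on the log2 scale, which is 2-fold: 135 (1.8%) were higher on ITD613 and 93 (1.24%) were lower. These 228 genes are described here.

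The cells are 32D, a murine myeloid progenitor line that normally needs interleukin-3, stably transduced with a retrovirus carrying one FLT3-ITD construct. The whole series holds 5 arrays, 1 each for ITD613, ITD78, ITD598, ITD602 and ITD611, and all 5 cultures were starved for 3 h and then given a tyrosine kinase inhibitor, which the labels do not name, for 1 h. The labels do not say what the construct numbers mean, whether FLT3 is the mouse or the human form, or whether a line is a clone or a pool. No culture without a construct and none without the inhibitor was analysed here. With 1 array per construct no difference could be tested, and construct, culture and array cannot be told apart. The titles of the ITD613, ITD78, ITD598 and ITD611 arrays carry the same date-like string, and that of ITD602 another. The bioB spike-in controls, which are added before hybridisation, read 5.74 to 6.59 on ITD602 and 1.70 to 3.47 on the other 4 arrays.

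FLT3 is a receptor tyrosine kinase of early blood progenitors, and an internal tandem duplication makes it signal without its ligand in some acute myeloid leukaemias. Red cell precursors are built by a small circuit of transcription factors, in which GATA1 and KLF1 switch on globins, heme enzymes and the proteins of the red cell membrane. Megakaryocytes, the platelet makers, come from a shared precursor and also use GATA1, whereas neutrophils, basophils and eosinophils arise from myeloid precursors. Which of these gene groups separated the 2 cultures was therefore looked at group by group.

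The 2 arrays were alike over most genes. Differences over the 7490 genes had a median of 0.05 and an SD of 0.43 (log2), and 57.1% of the genes were higher on ITD613. Array medians over all probe sets were 1.99 on ITD613 and 2.06 on ITD78. The 3' minus 5' difference of the actin control probe sets, a sign of RNA integrity, was 1.41 on ITD613 and 1.20 on ITD78, and on the other 3 arrays it ran from 1.19 to 1.56. For Gapdh it was 0.56 and 0.34, with 0.30 to 0.59 on the other 3, so that the 2 arrays lay within the spread of the series on both measures. Values up to 3.74 were shared by 100 or more probe sets of an array, and a low value in that range says little about size. Where the lower of the 2 values lay there, as in 46 of the 135 higher and 32 of the 93 lower genes, a second difference, with all values below 3.74 raised to it, is given for the genes described in full.

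**Figure D1:**
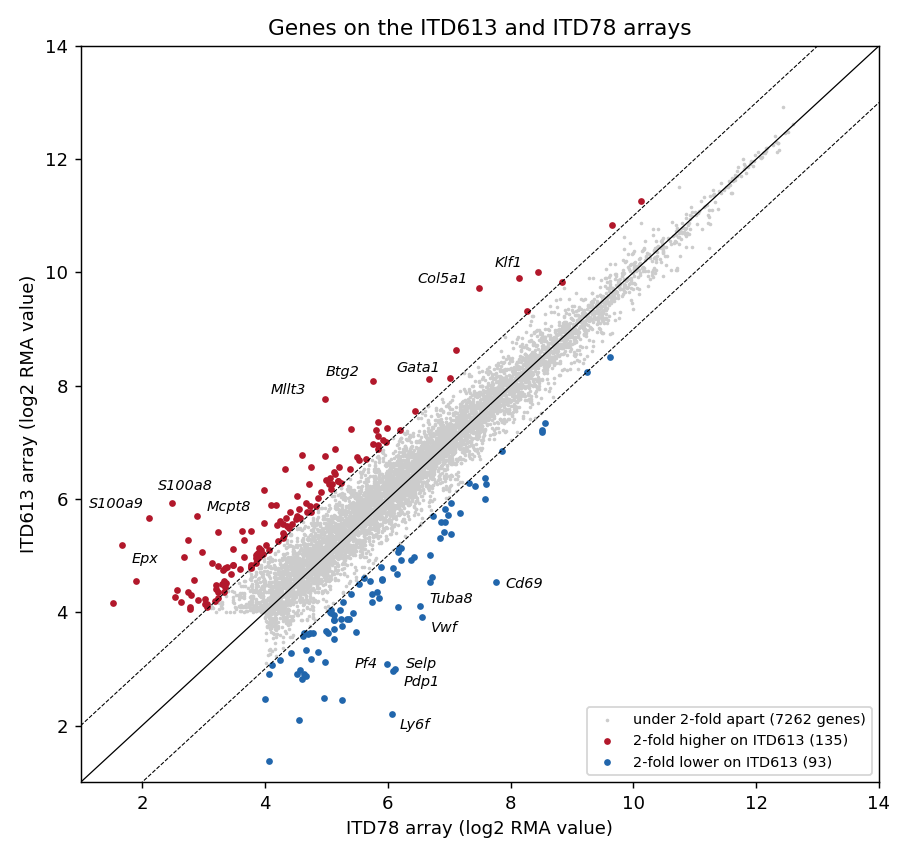
Each point is 1 of 7490 genes, with the log2 RMA value on ITD78 on the x axis and on ITD613 on the y axis. The solid line marks equal values and the dashed lines a 2-fold difference. The 135 genes higher on ITD613 (red) and the 93 lower (blue) lie outside the dashed lines, most of them at values below 7.

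Red cell genes were looked at first. That both cultures lean erythroid is not stated by the labels. The gene lists were chosen with earlier results of these data known, so the counts are a description and not an independent check. Over 4 lists of red cell genes (transcription regulators, globins, heme and iron genes, and membrane and skeleton genes), 53 of 75 measured genes had their higher value above 4. ITD613 was the highest and ITD78 the second highest of the 5 arrays in 39 of these 53 genes (73.6%), against 1402 of all 7490 genes (18.7%). The red cell character was partial in both cultures, as read on the probe sets used. Alas2, the erythroid enzyme that starts heme synthesis, read 1.43 on ITD613 and 1.46 on ITD78. Adult alpha globin Hba-a1 read 1.28 and 1.02, and the erythropoietin receptor gene Epor 3.11 and 3.24. All these erythroid genes stood in the low range on both arrays. Any probe set that Hba-a1 shares with other genes was not used, so its reading says little about adult alpha globin as a whole. The adult-type beta globin Hbb-b2, described below, stood well above that range on the probe set used. In RNA from a whole culture, fewer cells of a type and less RNA per cell cannot be told apart.

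Within the red cell genes, ITD613 stood above ITD78. Of the 53 genes 11 were at least 2-fold higher on ITD613 and 0 were 2-fold lower, beside 1.8% and 1.24% of all genes. The median difference was 0.57, and 46 of the 53 genes were higher on ITD613. Of the 11, Tspo2, Mfsd2b, Epb42 and Ermap were above 4 on ITD613 but not on ITD78. They were therefore compared only through the array where they were high.

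The regulators are described first. Klf1, the activator of globin and membrane genes, read 10.01 on ITD613 and 8.44 on ITD78, and 7.36, 6.68 and 7.08 on ITD598, ITD602 and ITD611. ITD613 was highest, ITD78 lay between it and the other 3, and the difference was 1.57 (2.96-fold). Gata1, the master regulator of the lineage, read 8.14 and 7.01, against 6.29, 5.84 and 6.05, with a difference of 1.13 (2.18-fold) and the same order of arrays. The other 15 regulators were under 2-fold apart. E2f2, a cell cycle factor of late erythroblasts, was 0.81 higher on ITD613, Nfe2 0.74, Lmo2 0.58, Tal1 0.57, Gfi1b 0.57 and Myb 0.56, and in all 6 the order was ITD613, ITD78, then the other 3 arrays. Lmo2 and Tal1 belong to one DNA-binding complex with GATA1. Gata2, which is normally replaced by GATA1 as red cells mature, ran the other way. It read 7.22 on ITD613 and 7.88 on ITD78, and 8.18, 8.34 and 8.03 on the others. Bcl11a, a repressor of embryonic and fetal globins, read 4.18 and 4.51. The remaining regulators differed less: Foxo3 by 0.49, Cbfa2t3 by 0.34, Lyl1 by 0.30, Ldb1 by 0.15, Zfpm1 by 0.04, Klf3 by 0.02 and Klf13 by -0.10.

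The globin list held 10 genes, of which 6 were measured and 4 were above 4. Probe sets assigned to several genes were not used, so the levels of the unmeasured genes are not known. Hba-a1 was read only where a probe set was assigned to it alone. The globins above 4 were mainly the embryonic ones. Hba-x, the embryonic zeta chain, read 11.27 on ITD613 and 10.13 on ITD78, and 7.13, 5.44 and 6.73 on ITD598, ITD602 and ITD611. Here ITD78 was much nearer to ITD613, with 1.14 (2.20-fold) between them, than to the other 3 arrays. Hbb-bh1, an embryonic beta chain, read 10.87 and 10.13, and Hbb-y, the embryonic epsilon chain, 12.92 and 12.44. These 2 genes were under 2-fold apart on the probe sets used, and ITD613 was again the highest array for both. The adult-type Hbb-b2 read 8.75 and 8.08. Beta globin probe sets can share target sequence, and without probe sets marked as less specific the difference of Hbb-b2 was -0.16 and that of Hbb-y 1.05, past 2-fold, which made 12 red cell genes 2-fold higher.

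Among heme and iron genes 2 of 18 were 2-fold higher and the median difference was 0.49. Tspo2, a membrane protein of erythroid cells, read 5.06 on ITD613 and 2.98 on ITD78, and 2.37, 2.02 and 1.78 on the other 3. The difference was 2.08, or 1.32 with low values raised. Blvrb, the biliverdin reductase of red cells, read 9.84 and 8.83 and was just past the threshold at 1.01. The enzymes of the pathway itself lay short of 2-fold and are named after their values were seen: Uros differed by 0.85, Cpox by 0.80, Alad by 0.79, Urod by 0.72 and Fech by 0.52, all higher on ITD613. Hmox1, which breaks heme down, read 3.55 on ITD613 and 4.13 on ITD78.

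The membrane genes held 6 of the 11. Of 14 genes above 4, 13 were higher on ITD613, and the median difference was 0.75, or 0.23 when genes below 4 were counted too. On ITD613 14 membrane genes were above 4, and on ITD78 10. Mfsd2b, which exports the lipid sphingosine-1-phosphate from red cells, read 5.41 on ITD613 and 3.24 on ITD78, and between 2.19 and 2.58 on the other 3. The difference was 2.17, or 1.67 with low values raised, and a second probe set gave 2.41. Ank1, the ankyrin that ties the membrane to its skeleton, read 6.77 and 4.97, a difference of 1.79. Its 3 further probe sets all read below 4 and differed by 0.25 to 0.36, and the mean of its probe sets differed by 0.67. Epb42, the red cell protein 4.2, read 4.75 and 3.32, with 1.88 on each of the other 3 arrays, and differed by 1.43 (1.01 with low values raised). Kel, the Kell blood group protease, read 7.22 and 5.81, against 4.86 to 5.22.

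Ermap and Icam4, a pair of blood group proteins of the red cell surface, are named after their values were seen. Ermap read 4.96 on ITD613, 3.86 on ITD78 and 1.75 to 2.04 on the others, and Icam4 read 6.89, 5.84 and 4.71 to 4.99. Slc4a1, the anion exchanger band 3 (also named after its values were seen), differed by 0.64 between the pair, at 5.55 and 4.91, but read 1.22, 1.41 and 1.22 on the other arrays. Both cultures thus stood above the other 3 for band 3 and the embryonic globins. The 4 red cell lists summed on the linear scale kept the same order: membrane genes came to 1228 on ITD613, 739 on ITD78 and 405 to 446 on the other 3. Globins came to 12555 on ITD613 and 8082 on ITD78, and to 4136, 1467 and 3134 on ITD598, ITD602 and ITD611. Globin signal was therefore not confined to the pair.

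**Figure D2:**
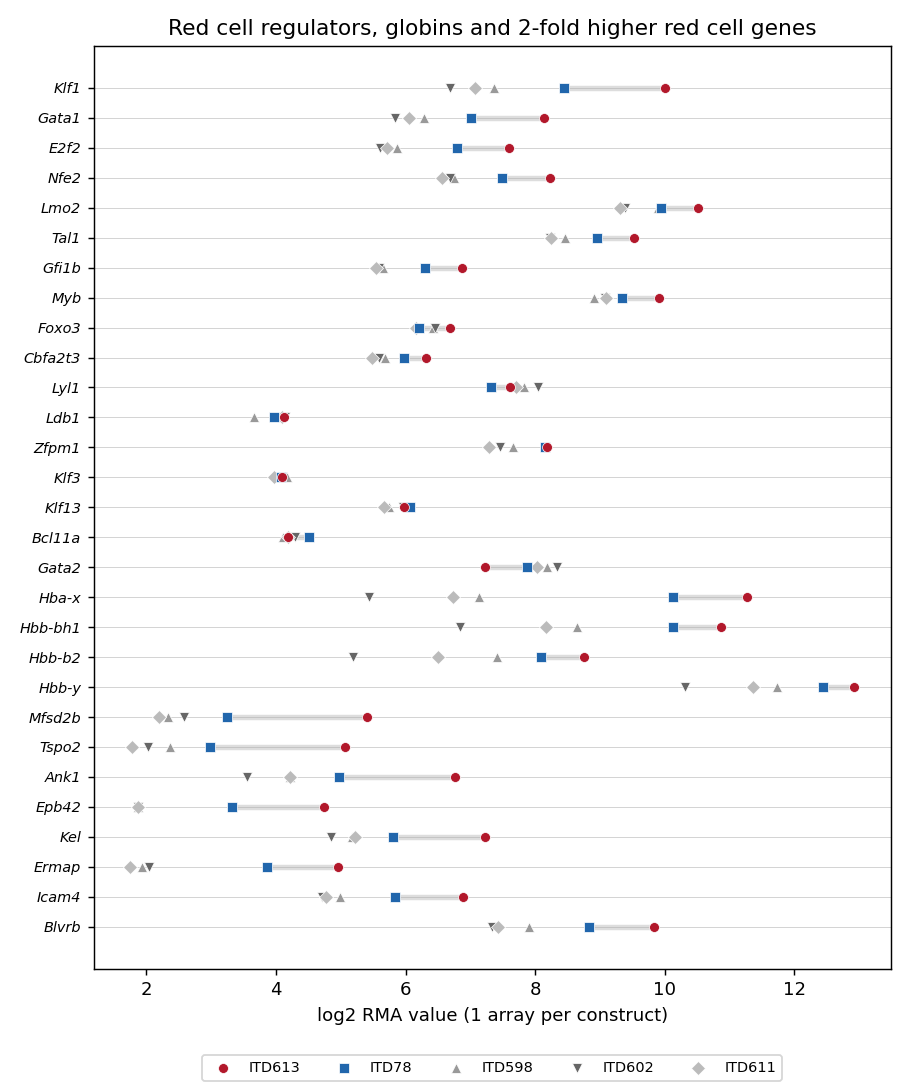
Log2 RMA values (x axis) of the 17 red cell regulators and 4 globins compared, and of the other red cell genes at least 2-fold higher on ITD613, on each of the 5 arrays, with a bar joining ITD613 (red circle) and ITD78 (blue square). For Klf1 and Gata1 the blue square lies between the red circle and the 3 grey symbols, and Gata2 shows the opposite order.

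Because 11 red cell genes were higher together, the 250 bases upstream of their starts were read from the RefSeq table of the build GRCm38.p6, which held 10 of them. They were searched on both strands for AGATAA and AGATAG as well as for the forms TGATAA and TGATAG, which are common versions of the sequence that GATA factors bind. At least 1 was found in 6 of the 10 genes (60%), in 14 of 41 red cell genes above 4 (34.1%), in 19 of 113 genes higher on ITD613 (16.8%), in 9 of 72 lower (12.5%), in 985 of 6211 compared genes (15.9%) and in 7322 of all 27025 promoters (27.1%). A match is a description of the letters and not a site of binding. The sequences of 4 of the 6 are shown because they span regulator, globin and membrane roles, 5′ to 3′ on the gene's strand and ending at the base before the start, with the matched letters (or their reverse complement) in capitals. Klf1 lies at chr8:84901732-84901981 (plus strand), Hba-x at chr11:32276350-32276599 (plus), Kel at chr6:41704326-41704575 (minus) and Ermap at chr4:119189996-119190245 (minus).
Klf1: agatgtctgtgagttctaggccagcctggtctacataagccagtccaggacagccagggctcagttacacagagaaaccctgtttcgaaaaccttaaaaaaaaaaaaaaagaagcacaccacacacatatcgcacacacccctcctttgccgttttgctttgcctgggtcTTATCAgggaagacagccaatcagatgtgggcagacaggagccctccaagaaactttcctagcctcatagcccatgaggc
Hba-x: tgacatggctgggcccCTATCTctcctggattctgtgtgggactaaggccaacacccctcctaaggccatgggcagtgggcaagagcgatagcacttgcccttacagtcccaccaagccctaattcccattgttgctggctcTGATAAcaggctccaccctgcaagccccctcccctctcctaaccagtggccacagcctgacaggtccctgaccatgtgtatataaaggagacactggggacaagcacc
Kel: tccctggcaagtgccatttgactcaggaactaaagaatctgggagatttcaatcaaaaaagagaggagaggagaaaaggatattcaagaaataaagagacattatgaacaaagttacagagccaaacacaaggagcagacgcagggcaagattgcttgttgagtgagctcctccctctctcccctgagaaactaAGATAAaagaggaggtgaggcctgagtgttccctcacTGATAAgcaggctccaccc
Ermap: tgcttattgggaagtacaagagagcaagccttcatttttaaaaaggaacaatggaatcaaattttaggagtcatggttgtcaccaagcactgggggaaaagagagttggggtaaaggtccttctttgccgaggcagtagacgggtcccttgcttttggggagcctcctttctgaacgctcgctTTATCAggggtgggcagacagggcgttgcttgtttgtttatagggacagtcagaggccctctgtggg
Klf1 and Ermap each held 1 match, and Hba-x and Kel each held 2.

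Platelet and megakaryocyte genes split in both directions, with 2 of 15 at least 2-fold higher and 3 lower, beside 1.8% and 1.24% of all genes. The median difference was -0.02. ITD78 was the highest of the 5 arrays in 8 of the 15 genes (53.3%), beside 10.1% of all genes. The 3 lower genes were Selp, Pf4 and Vwf. Selp (P-selectin) read 2.99 on ITD613 and 6.12 on ITD78, and 6.06, 5.74 and 5.49 on ITD598, ITD602 and ITD611. Only ITD613 was low, by 3.12 below ITD78 (2.38 with low values raised), and 2 further probe sets gave -4.02 and -3.02. Pf4 (platelet factor 4) read 3.09 and 5.99, against 6.05 to 6.51, again with ITD613 alone in the low range, and differed by -2.90 (-2.25 with low values raised).

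Vwf, the von Willebrand factor, had another pattern. It read 3.91 on ITD613 and 6.56 on ITD78, but 2.96, 3.47 and 3.12 on the other 3, so that ITD78 was the array that stood apart. The difference was -2.65 (6.27-fold lower on ITD613). Vwf, Mrvi1 and Cltrn (the last 2 named after their values were seen) were the only 3 of the 93 lower genes for which ITD78 lay further from the other 3 arrays than ITD613 did, on the same side. That is 3.23% of the lower genes, beside 9.92% of all genes compared. Thbs1 (thrombospondin) and Gp5, a subunit of the platelet receptor for von Willebrand factor, ran opposite to Vwf. Thbs1 read 5.67 and 4.35, with 2.12 to 2.65 elsewhere, and Gp5 read 4.47 and 3.20, a difference of 1.27 (0.73 with low values raised). Summed on the linear scale the list stood at 7677 on ITD613 and 7885 on ITD78, and at 5733 to 6467 on the other 3.

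Granulocyte genes had wide gaps as read, which rest on low values on ITD78. S100a9 and S100a8, which encode the subunits of calprotectin of neutrophils, are neighbours in the genome. S100a9 read 5.67 on ITD613 and 2.11 on ITD78, and 7.39, 6.12 and 3.77 on ITD598, ITD602 and ITD611. S100a8 read 5.93 and 2.49, and 7.61, 6.65 and 3.98. For both genes ITD613 lay inside the range of the other 3 and ITD78 below it. The differences were 3.56 and 3.44, or 1.93 (3.82-fold) and 2.19 (4.56-fold) with low values raised, less than the 2.79 of Mllt3 described further on.

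Ngp, a neutrophil granule protein, read 6.16 and 3.99, against 3.99 to 6.69, and Ms4a3, a membrane protein of granulocyte precursors, read 4.18 and 2.63, against 4.01 to 5.74. The difference of Ms4a3 was 1.55, but 0.44 with low values raised, which is short of 2-fold. Ctsg (cathepsin G), a protease of primary granules, went the other way. It read 6.24 on ITD613 and 7.42 on ITD78, below the 8.77 to 9.17 of the other 3 arrays. In all, 4 of 9 genes of the neutrophil list were 2-fold higher and 1 was lower, beside 1.8% and 1.24% of all genes. The 4 were above 4 on ITD613 but not on ITD78, where 5 genes of the list were above 4. The list had a median of 0.66. That median was 0 when genes below 4 were counted too. The list summed to 495 on ITD613 and 499 on ITD78, and 971 to 1695 on the other 3. Elane, Ltf, Camp and Lcn2, further granule genes, read below 3 on both arrays. The part of granulocytic cells in the other differences was not tested.

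The list of mast cell, basophil and eosinophil genes had 20 measured genes and 6 above 4. Of these 6, 3 were 2-fold higher on ITD613, beside 1.8% of all genes. These 3 were above 4 on ITD613 but not on ITD78. The list summed on the linear scale to 1984 on ITD613 and 1921 on ITD78, and 2250 to 2379 on the others. Mcpt8, a basophil protease, read 5.70 on ITD613 and 2.90 on ITD78, and 5.94, 5.88 and 5.36 on the others, so that ITD78 alone was low. Epx (eosinophil peroxidase) read 5.18 and 1.68, and 2.14, 1.90 and 1.90 on the others, so that ITD613 alone was high. Prg2, the major basic protein of eosinophil granules, read 4.17 and 1.53, with 3.47, 2.20 and 2.01 elsewhere. With low values raised the 3 differences were 1.96, 1.44 and 0.43, and only the first 2 stayed past 2-fold. The list's median of 1.77 rests on these 3 genes and was -0.01 when genes below 4 were counted. In monocyte and macrophage genes (3 above 4) and lymphoid genes (1 above 4), 0 genes were 2-fold apart.

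**Figure D3:**
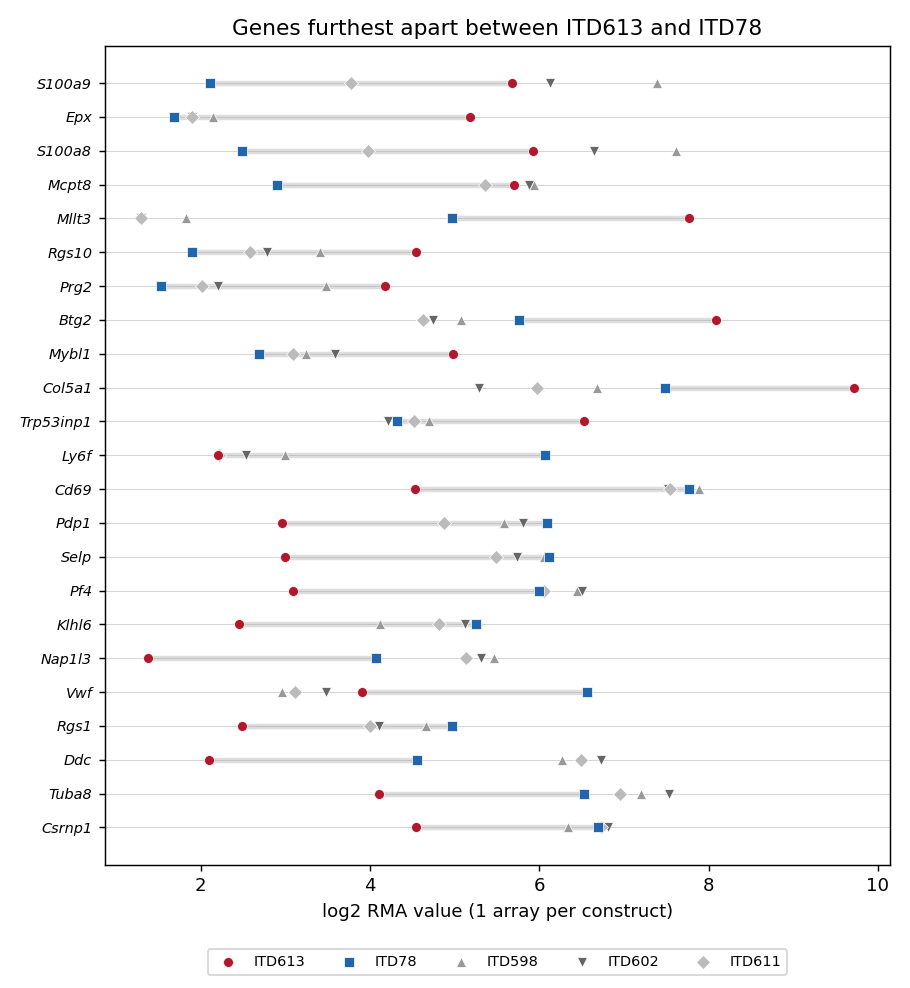
Log2 RMA values (x axis) on the 5 arrays for the named genes among the 12 furthest apart in each direction, higher on ITD613 above and lower below. The bar joins ITD613 (red circle) and ITD78 (blue square). For Mcpt8 the 3 grey symbols lie close to ITD613, and for S100a9 and S100a8 ITD598 and ITD602 lie beyond it and ITD611 between the pair, whereas Mllt3, Btg2 and Col5a1 have them beyond ITD78.

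Outside these lineages, Mllt3, Btg2 and Col5a1 were among the genes with gaps over 2 and both values above the shared range. Mllt3, a chromatin reader that helps keep blood stem cells and a fusion partner of MLL in leukaemia, read 7.76 on ITD613 and 4.97 on ITD78, and 1.83, 1.29 and 1.29 on ITD598, ITD602 and ITD611. The pair did not overlap the other 3, and the difference was 2.79 (6.93-fold). Its 2 further probe sets gave 2.77 and 3.04. Mllt3 was the 1 of 7 stem and progenitor genes past 2-fold, and the median of that list, 0.44, was -0.03 when genes below 4 were counted. Btg2, an antiproliferative gene, read 8.08 and 5.76, and 5.08, 4.75 and 4.63. Its difference was 2.33 (5.03-fold), and a second probe set gave 1.62.

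Ccng2, a cyclin that slows the cell cycle, read 6.12 and 4.91, and Trp53inp1, a stress gene downstream of p53, read 6.52 and 4.32, against 4.21 to 4.69. For Trp53inp1 ITD78 lay among the other 3 arrays. In the list of antiproliferative genes and kinase inhibitors 2 of 14 were 2-fold higher, 0 were lower, and the median was 0.57. Cell cycle genes, by contrast, had 0 of 30 genes 2-fold apart and a median of 0.06. MYC and ribosome biogenesis genes had 0 of 27 past 2-fold and a median of -0.26, with 23 of 27 lower on ITD613.

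Col5a1, a fibrillar collagen chain, read 9.72 on ITD613 and 7.49 on ITD78, and 6.69, 5.28 and 5.97 elsewhere, which is a difference of 2.23 (4.70-fold). Its 2 further probe sets gave 2.68 and 0.96. Mybl1, a MYB family transcription factor, read 4.98 and 2.69, and Rgs10, an inhibitor of G protein signalling, read 4.55 and 1.90. In both the other 3 arrays lay between the pair. With low values raised their differences were 1.24 and 0.81.

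Among the genes furthest below ITD78 on ITD613 was Cd69, an early activation antigen of leukocytes. It read 4.53 on ITD613 and 7.76 on ITD78, and 7.88, 7.52 and 7.54 on the others. ITD78 lay inside the range of the other 3, and ITD613 was 3.23 lower (9.39-fold). Rgs1, which dampens chemokine receptor signals, read 2.49 and 4.97, and Klhl6, an adaptor in lymphoid cells, read 2.46 and 5.26, differing by -1.23 and -1.52 with low values raised. Csrnp1, a nuclear activator of transcription, read 4.54 and 6.70, against 6.34 to 6.81.

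Ly6f, a member of the Ly6 family of anchored surface proteins, had the widest gap as read, on a low value for ITD613. It read 2.20 on ITD613 and 6.07 on ITD78, and 3.00, 2.53 and 2.21 on ITD598, ITD602 and ITD611, so that ITD78 alone was high. The difference was -3.87, or -2.33 (5.04-fold) with low values raised, which is less than that of Cd69. Tuba8, an alpha tubulin, read 4.11 and 6.53, and 6.95 to 7.54 elsewhere, and its second probe set gave -1.90. Pdp1, the phosphatase that turns on pyruvate dehydrogenase, read 2.96 and 6.09, with 4.87 to 5.81 on the other 3, and its second probe set gave -2.93. The difference was -3.13, or -2.35 with low values raised.

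Ddc, which makes dopamine and serotonin, read 2.09 and 4.56, against 6.27 to 6.73, and Nap1l3, a histone chaperone family member, read 1.37 and 4.07, against 5.14 to 5.46. ITD78 lay between ITD613 and the rest in both. Their differences of -2.47 and -2.70 became -0.82 and -0.33 with low values raised, so their size is not fixed by these arrays.

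Glycolysis and hypoxia genes had 3 of 20 at least 2-fold lower on ITD613, beside 1.24% of all genes, with 0 higher and a median of -0.24. Hk2, the hexokinase that commits glucose to glycolysis, read 5.76 on ITD613 and 7.18 on ITD78, with 7.87 to 8.09 elsewhere. Ndrg1, a hypoxia-induced gene, read 5.32 and 6.85, and Vegfa, the vascular growth factor, read 3.63 and 4.63, at the threshold. With low values raised Vegfa differed by -0.89, short of 2-fold. Phgdh, which starts serine synthesis, was the 1 of 17 stress response genes that was lower, at 7.22 and 8.52. Cholesterol genes had 0 of 18 past 2-fold and a median of -0.30, with 16 of 18 lower on ITD613.

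Of the genes that report on the FLT3 pathway, 0 of 11 STAT5 targets were 2-fold apart, and the median was -0.09. The ERK output list of 12 had 1 gene on each side. Etv5, an ETS factor induced by ERK, read 4.55 on ITD613 and 5.71 on ITD78, whereas Phlda1 read 6.74 and 5.51. Bcl2, the survival gene, read 5.69 and 6.73, with 7.06 to 7.40 on the others, and was the 1 of 9 BCL2 family genes past 2-fold. Cytokine receptor genes had 0 of 8 past 2-fold and a median of -0.35. Housekeeping genes had 0 of 9 and a median of -0.11. The lists were not tested, and 35 of the 228 genes were on any list.

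**Figure D4:**
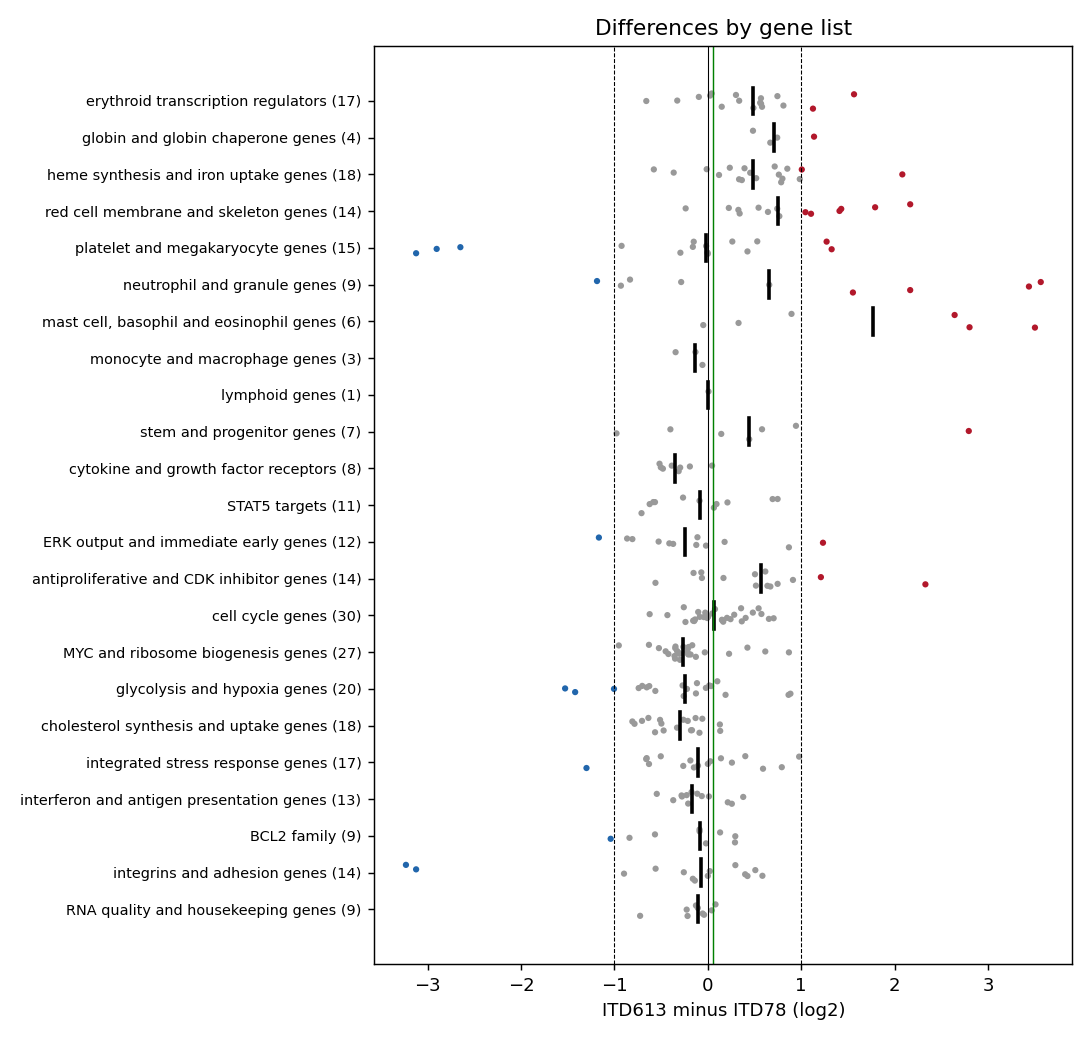
Differences ITD613 minus ITD78 (log2, x axis) of the genes above 4 in each of 23 lists, with the number of genes in brackets. Points are genes (red and blue at least 2-fold apart), black bars are list medians, dashed lines mark 2-fold and the green line the median of all 7490 genes (0.05). The 4 red cell lists have their medians between 0.49 and 0.75, and cholesterol genes at -0.30.

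The 228 genes were then placed against the other 3 arrays, which the choice of genes did not use. ITD78 lay between ITD613 and the other 3 in 71 of the 135 higher genes (52.6%) and in 53 of the 93 lower genes (57.0%), compared with 36.2% of all 7490 genes. ITD613 alone was outside their range in 37 higher (27.4%) and 13 lower genes (14.0%), beside 23.7% of all genes. In 21 higher (15.6%) and 24 lower genes (25.8%) the pair lay on opposite sides of the other 3, beside 8.42% of all genes. A wide gap between 2 arrays by itself favours other values lying inside it. ITD78 alone was outside in 5 higher (3.7%) and 0 lower genes, beside 9.88% of all genes. The 5 were S100a9, S100a8, Mcpt8, Ngp and Ms4a3, all granulocyte genes of the lists above. For Ngp ITD78 and ITD611 both read 3.99, so that ITD78 did not stand apart from ITD611 there.

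**Figure D5:**
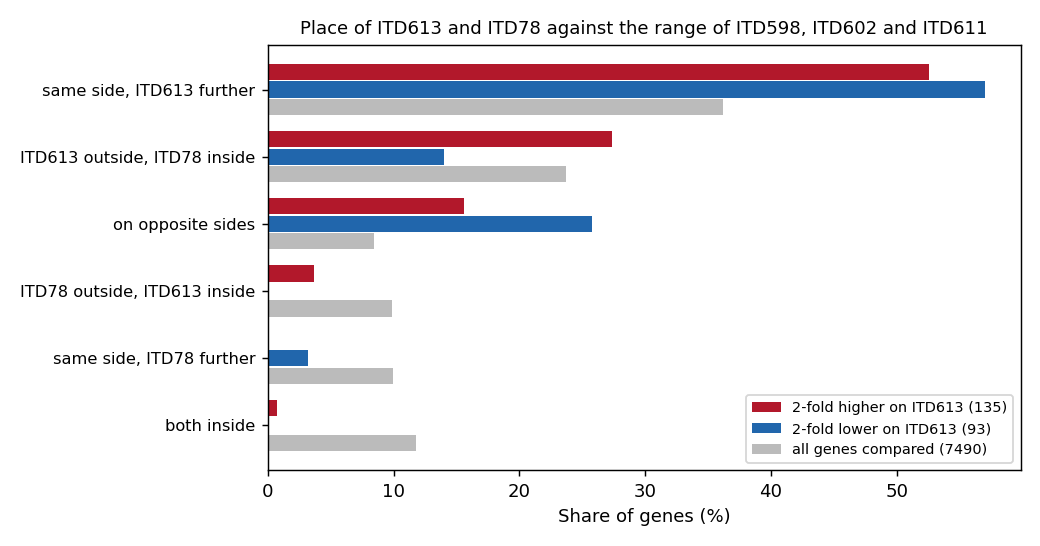
Share of genes (x axis, percent) by where ITD613 and ITD78 lie against the range of ITD598, ITD602 and ITD611, for the 135 higher genes (red), the 93 lower genes (blue) and all 7490 genes (grey). The longest bars in all 3 groups are those with both arrays on the same side and ITD613 further, at 52.6%, 57.0% and 36.2%.

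Further probe sets gave a second reading on the same arrays. Among higher genes 34 had further probe sets above 4, 47 in all, of which 44 had the same sign and 19 were again 2-fold apart. Among lower genes 31 had 43, of which 40 had the same sign and 26 were 2-fold apart. Over all genes 69.5% of 4499 further probe sets shared the sign and 4% were 2-fold apart in either direction. Rprd2, a regulator of RNA polymerase II named after its values were seen, was an exception: the probe set used gave -2.07 and the 2 others above 4 gave 0.62 and 0.68.

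The 228 genes were weaker in signal than the genes compared as a whole. The median level over the 2 arrays was 4.87 for higher genes, 4.96 for lower genes and 6.18 for all 7490. At the edge of the threshold Rccd1 (1.00, or 0.45 with low values raised) and Blvrb (1.01) were inside and Rad54b and Tctex1d2 (both 0.99) outside on the higher side. On the lower side Dnmt3b (6.85 on ITD613 and 7.85 on ITD78) and Vegfa were inside and Gnptab and Pias2 (both -0.99) outside.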

How the data were processed

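Total RNA of the 5 cultures was hybridised to 1 Affymetrix mouse expression array each. The authors deposited log2 values made with RMA, per the submitters' processing notes, with no version named in the sources used here. That the base is 2 was judged from the values. All 5 columns were matched to samples through the labels (0 without a sample). The platform annotation gave 1 gene symbol for 34945 of the 45101 probe sets and several for 932. A further 9160 had no entry in it, and 64 control probe sets were set aside. Of the 34945, 34741 matched a RefSeq table by gene ID, and 0 were renamed. Among the 10092 probe sets with no gene or several, 1437 had their higher value above 4. Of these 1437, 43 were 2-fold higher and 49 lower.

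The differences were computed in Python 3.11.15 with pandas 2.3.3 and numpy 2.4.6, and the scripts were tested on simulated data. Each construct has 1 array, which limits the precision, so no test was run and no error is given. The members and the 23 lists (499 genes, 285 above 4 and measured) were chosen with earlier results of these data known. Genes were named by rule: the 12 furthest apart in each direction (clone genes counted, unnamed), up to 4 genes past 2-fold per list, red cell regulators and globins, and the 2 genes on each side of the threshold. The alternatives tried were another normalization, centring, raised low values, other minimums and fold limits, and other choices of probe set. Leaving out each of ITD598, ITD602 and ITD611 was added after seeing the data.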

Additional observations from a re-analysis of the deposited data

How the results depend on the processing

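The number of genes 2-fold higher on ITD613 was 135, and it was 81 when the probe sets of a gene were averaged and 40 with a limit of 1.5 (log2) in place of 1. The number 2-fold lower was 93, and 32 with the limit of 1.5. Under that limit the red cell genes past it numbered 4 in place of 11. With probe sets averaged, ITD78 lay between ITD613 and the other 3 arrays in 31 lower genes in place of 53. The stricter limit lowers counts by construction, and the cause of the changes with averaging was not tested. The other 49 values of these counts under the alternatives stayed within 1.5 times the reported ones. Leaving out ITD598, ITD602 or ITD611 gave 73 to 76 higher and 53 to 57 lower genes with ITD78 between, and 39 to 41 red cell genes with ITD613 highest and ITD78 second. Of 43 named genes past 2-fold, 30 stayed past it in every setting that could be computed for them and 0 changed sign. No paired analysis was possible because each construct has 1 array. No replicate spread exists, so a gene's difference was taken as moved when it shifted by more than the SD of differences over genes (0.43). That spread is not an error.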

Other observations

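Some pairs and families among the 228 genes, picked out after their values were seen, lay in the same direction. Genes named Zfp, Zkscan, Zbtb or Zscan, which mostly encode zinc finger repressors of transcription, counted 11 of 171 higher on ITD613 (6.43%, beside 1.8% of all genes) and 0 lower, with a median difference of 0.20. With values below 3.74 raised to it, 6 of the 11 stayed past 2-fold. Most of the 11 read below 5 on both arrays.

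Of the 228 genes, 9 pairs were direct neighbours in the order of 18145 measured genes, and 7 of these pairs lay in the same direction. No share over all neighbouring genes stands beside these counts, which are a description only. Casp1 and Casp4, which encode inflammatory caspases, were each 1.34 lower on ITD613, and Tmem176a and Tmem176b, neighbouring membrane protein genes, differed by -1.49 and -1.51. For both caspase genes ITD78 was the highest of the 5 arrays: Casp1 read 5.59 on ITD613, 6.93 on ITD78 and 6.43 to 6.58 elsewhere. Mcpt8 and Ctsg are also neighbours but ran in opposite directions, at 2.80 and -1.19.

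The histone H3.3 genes differed in opposite directions on their single probe sets: H3f3b read 6.77 on ITD613 and 4.60 on ITD78, and H3f3a read 3.86 and 5.13. Il6 read 5.43 and 3.78, with 3.09 to 3.12 on the other 3 arrays. Adgre1, the macrophage marker F4/80, stayed below the level compared on both arrays, at 2.68 and 3.00, but read 6.51, 7.21 and 6.91 on ITD598, ITD602 and ITD611.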
